A study of Rattus norvegicus with 17 samples.

Results

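The heat shock proteins and cytosolic chaperones described here are the array probes whose transcript accession maps to a gene symbol of the Hspa, Hspb, Hspd, Hspe, Hsph, Hsp90, Dnaja, Dnajb or Dnajc families, to the chaperonin subunits Cct2 to Cct8, or to Bag1 to Bag6. Hspa5, Hsp90b1, Dnajb9, Dnajb11 and Dnajc3, which belong to the endoplasmic reticulum response, were left out. The rule found 73 of the 15154 genes named on the arrays, read by 92 of 30367 probes on all 17 arrays. Of these, 82 probes for 64 genes were well above background on at least 8 arrays, and 61 of the 64 genes were so on every array. The rule goes by symbol, so it also takes in chaperones that work in mitochondria, such as Hspd1, Hspe1 and Hspa9, and a few of the endoplasmic reticulum, such as Hspa13 and Dnajc10. None of the spots of these probes was saturated. Of 85 protein-coding genes that match the rule in the RefSeq table, 12 had no probe named here, among them Hspa1a, Hspa1b and Dnajb1, whose products are the classic heat-inducible Hsp70 and its J protein partner.

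The study asked whether long exposure to millimetre waves changes gene expression in rat skin. Male CD hairless rats, given as 2 to 3 months old, were exposed to a 94 GHz field for 3 hours a day on 3 days a week over 5.5 months, or were sham exposed. Total RNA from pieces of skin taken after the last exposure was labelled with Cy3 and hybridised to 1-colour Agilent arrays, which gave 9 exposed and 8 sham arrays. The design text counts 6 exposed and 8 sham animals, the labels do not tie arrays to animals, and the rats lived in pairs, so each p-value reflects only how far these arrays vary, part of which may be technical. All measured markers of basal keratinocytes (4 genes), differentiated keratinocytes (4 genes) and fibroblasts (6 genes) were above background on every array, which fits the label of skin. The 75th percentile of the processed signal, which sets each array's scale, lay between 1077 and 1703. In bulk skin, fewer cells of a type and less RNA per cell cannot be told apart.

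Chaperones bind unfolded or partly folded proteins and release them in a form that can fold. Hsp70 proteins do so in cycles of ATP hydrolysis that J proteins start and nucleotide exchange factors of the Hsp110 and Bag families end, and they pass some clients on to Hsp90 or to the ring-shaped chaperonin TRiC/CCT. Small heat shock proteins hold unfolded proteins without ATP. On heating, the transcription factor Hsf1 binds heat shock elements, inverted repeats of the letters GAA, in the promoters of many of these genes, and in skin the same genes answer to heat, ultraviolet light and wounding.

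The promoters are shown because they mark which of these genes carry the sequence through which heating is known to act. RefSeq promoters (build GRCr8, from 250 bases before to 50 after the start) were found for 59 of the 73 genes, with 60 promoters in all since Bag6 has a pair. On either strand, the motif GAANNTTC was in 15 of the 60 promoters (25%) against 8.59% of all 33469 promoters in the table. A longer motif, in which any 2 letters and another GAA follow the shorter one, was in 6 of 60 against 0.798% of all. The 6 genes were Hspa8, Hspd1, Hspe1, Hsph1, Cct4 and Dnaja1. In Cct4 (bases 26 to 38) and Dnaja1 (bases 10 to 22) the match lies after the start. In Hspa8 both matches lie before it, between bases -213 and -43, and in Hsph1 the match lies between bases -36 and -24. Hspd1 and Hspe1 are read in opposite directions from 1 shared promoter, whose 2 overlapping matches lie between bases -65 and -48 of Hspe1. In the sequences below, written in the direction of the gene, capitals mark the longer motif. They are Hspa8 at chr8:50080264-50080513 (plus strand), Hspe1 at chr9:64084212-64084326 (plus strand) and Hsph1 at chr12:10427282-10427367 (plus strand).
Hspa8: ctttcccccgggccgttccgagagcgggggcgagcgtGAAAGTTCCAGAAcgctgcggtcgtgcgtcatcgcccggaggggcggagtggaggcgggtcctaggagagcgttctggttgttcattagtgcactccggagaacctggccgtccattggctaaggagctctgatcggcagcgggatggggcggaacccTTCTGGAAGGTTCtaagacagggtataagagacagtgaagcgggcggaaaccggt
Hspe1: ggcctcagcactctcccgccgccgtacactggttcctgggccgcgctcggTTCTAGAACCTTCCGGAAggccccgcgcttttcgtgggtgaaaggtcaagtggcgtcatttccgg
Hsph1: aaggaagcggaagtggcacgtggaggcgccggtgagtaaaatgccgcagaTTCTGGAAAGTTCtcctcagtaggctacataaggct
A match is a string of letters and was not tested for binding.

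Between exposed and sham skin no chaperone gene passed the test. Levels are log2 of the processed signal minus the array's own 75th percentile, each gene is read from its brightest kept probe, and differences are exposed minus sham on that log2 scale. With limma's moderated test and Benjamini-Hochberg adjustment over all 20709 kept probes, 0 of the 64 genes had an adjusted p under 0.05, and over all probes 0% did. The smallest adjusted p among the chaperone probes was 0.983. At an unadjusted p under 0.05, 0 of 64 genes and 1 of 82 probes (1.22%) passed, against 4.55% of all kept probes (0.594% higher and 3.96% lower in exposed skin). That split of all probes, 123 higher and 820 lower, became 203 and 595 when arrays were scaled to their median and 200 and 635 with quantile scaling. The 1 probe was the dimmer of the pair for Bag4, at -0.22 (95% interval -0.40 to -0.04, limma adjusted p = 0.983), while the brighter Bag4 probe was at 0.01.

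The differences of the chaperone genes were small beside those of all probes. Their median size, whatever the sign, was 0.040 against 0.067 over all kept probes. The 95% interval lay within 1.2-fold either way for 45 of 64 genes (70.3%), against 47.2% of all kept probes, and within 1.5-fold for 59 of 64 (92.2%), against 87.4%. Since probes with little spread have narrow intervals, these shares go with the low spread described further on. Each gene is also read from its brightest kept probe, while all kept probes include the dimmer ones of a gene. The part of brightness in these contrasts was not tested. The median difference was 0.013 against -0.025 over all kept probes, and 42 genes were higher and 22 lower (65.6% higher, against 38.7% of all kept probes). With scaling to the median, 75% of the genes and 46.4% of all probes were higher, and with normexp background correction 54.7% and 30.8%. The plot of differences shows every gene with its interval.

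**Figure D1:**
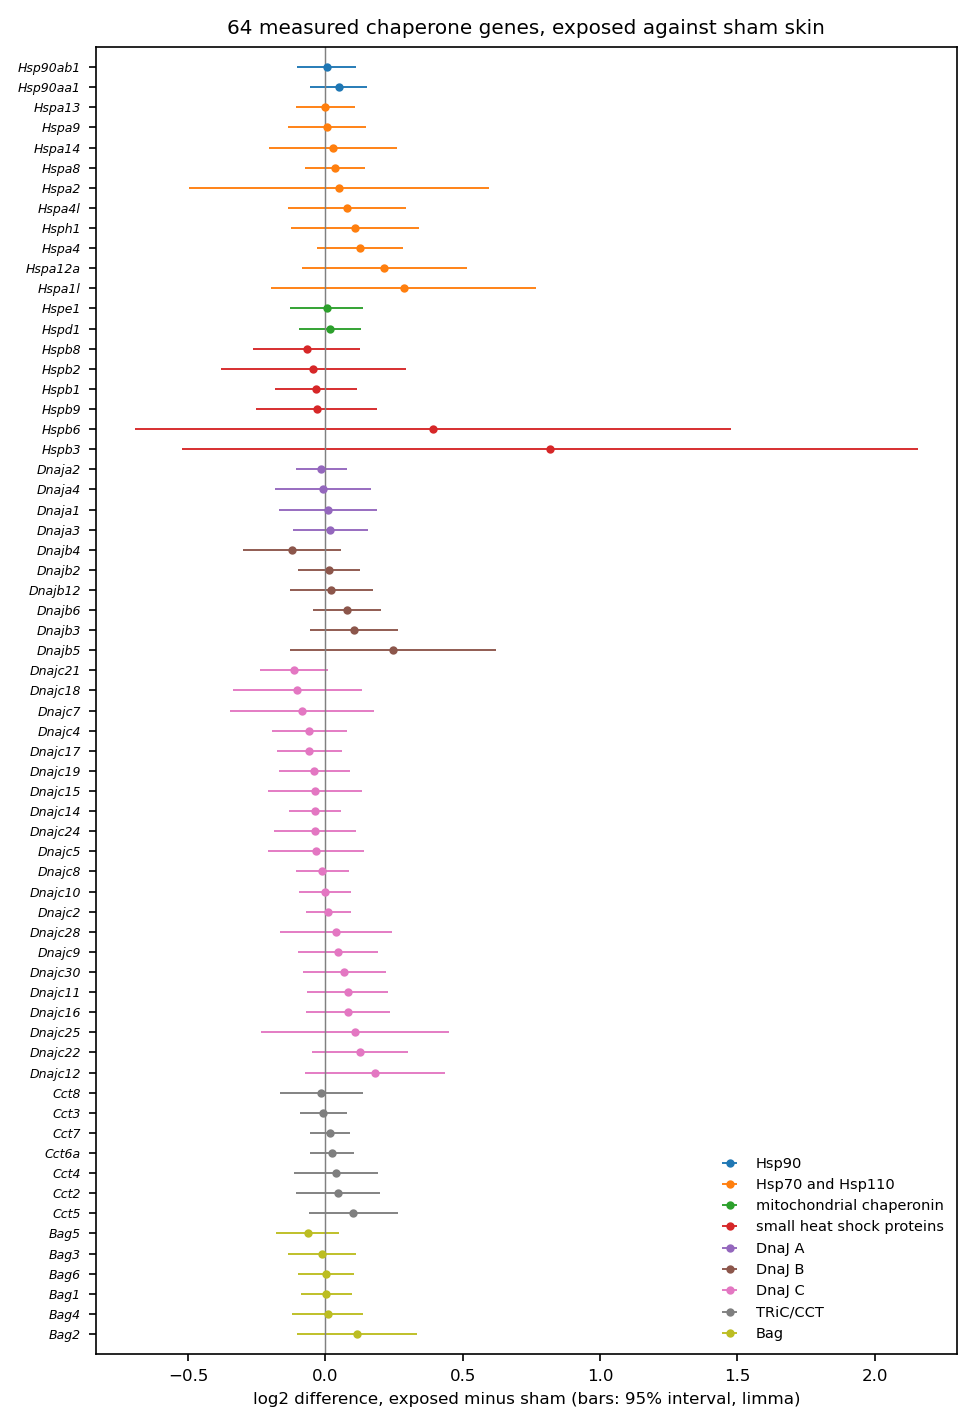
Exposed minus sham difference on the log2 scale (x axis) for each of the 64 measured chaperone genes (y axis, grouped and coloured by family), with points at limma's estimate and bars for its 95% interval. All 64 intervals cross 0, and those of Hspb3 and Hspb6 are the widest.

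The cytosolic Hsp90 genes, whose products finish the folding of kinases and steroid receptors, overlapped between the groups. Hsp90aa1, the more inducible form, ran from 1.89 over a median of 1.99 to 2.18 on exposed arrays and from 1.83 over 1.96 to 2.03 on sham arrays. The groups overlapped over most of their range, and the difference was 0.05 (95% interval -0.06 to 0.15, limma adjusted p = 0.983), a span of 0.961-fold to 1.11-fold. Its sign depended on the probe, since one of the other Hsp90aa1 probes was at -0.14 and the other at 0.06. Hsp90ab1, the constitutive form, ran from 3.45 to 3.65 on exposed and from 3.29 to 3.65 on sham arrays, with medians of 3.52 and 3.55. Only 3 of 9 exposed arrays were above the sham mean for Hsp90ab1.

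Hsp70 genes and their Hsp110 relatives were all above 0 in the difference, 10 of 10, against 38.7% of all kept probes. The differences, all positive, ran from 0.00029 for Hspa13 to 0.28 for Hspa1l, and none passed the test. This sign was not stable, because with normexp background correction 4 of the 10 (Hspa12a, Hspa13, Hspa1l and Hspa2) were below 0, and with quantile scaling after it Hspa13 was. Hspa8, the constitutive Hsp70 of the cytosol, ran from 5.56 over 5.67 to 5.87 on exposed arrays and from 5.49 over 5.68 to 5.77 on sham arrays. The 2 groups overlapped almost fully, and the difference was 0.04 (95% interval -0.07 to 0.15, limma adjusted p = 0.983). Hspa4, an Hsp110 that releases nucleotide from Hsp70, ran from 1.26 over 1.48 to 1.61 on exposed arrays and from 0.98 over 1.37 to 1.59 on sham arrays. It was above the sham mean on 7 of 9 exposed arrays, with a difference of 0.13 (95% interval -0.03 to 0.28) and the second smallest p of the 64 genes (limma adjusted p = 0.983). Hsph1, the heat-inducible Hsp110 whose promoter is printed above, ran from -3.78 over -3.57 to -3.12 on exposed arrays and from -4.16 over -3.59 to -3.33 on sham arrays. Its medians lay closer than its mean difference of 0.11 (95% interval -0.13 to 0.34), and that difference was -0.01, -0.09, 1.04 and 0.04 within slides 1 to 4. Slides are read from codes in the sample titles. Slide 3 holds only exposed replicate 8 and sham replicate 5, so any value within it is 1 array minus another. On slide 4 the only exposed array is replicate 9. Hspa9, the Hsp70 of mitochondria, was at 0.0063, and Hspa4l at 0.08.

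Some of the remaining Hsp70 genes are known for restricted expression, and the spread of several was wide. Hspa1l, a testis form from the same cluster as the inducible Hsp70 genes, was above background on 9 exposed but only 4 of 8 sham arrays. It ran from -5.79 over -5.58 to -4.39 on exposed and from -6.20 over -5.77 to -4.88 on sham arrays, so the groups overlapped and the lower sham values are near the floor of the scanner. The difference was 0.28 (95% interval -0.20 to 0.77, limma adjusted p = 0.983). Hspa12a, a distant relative of the Hsp70 family, was at 0.21 (95% interval -0.09 to 0.52), with 0.37 and 0.50 within slides 1 and 2 and -0.21 and -0.32 within slides 3 and 4. Hspa2, known for its role in sperm formation, ran from -3.33 over -2.82 to -1.96 on exposed and from -4.15 over -2.70 to -1.79 on sham arrays. The sham range enclosed the exposed range, and the difference was 0.05 (95% interval -0.50 to 0.60). Hspa14, which acts at the ribosome, was at 0.03 (95% interval -0.21 to 0.26).

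The mitochondrial chaperonin subunit Hspd1 and its lid Hspe1, which share the promoter printed above, were at 0.02 and 0.0059. Hspd1 ran from 3.04 over 3.12 to 3.29 on exposed and from 2.91 over 3.09 to 3.32 on sham arrays. For Hspe1 the exposed arrays ran from 3.66 over 3.89 to 4.05 and the sham arrays from 3.67 over 3.90 to 3.98. Neither gene separated the groups, and both intervals lay within 1.2-fold.

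Small heat shock proteins were mixed in sign, with 2 of 6 measured genes higher and 4 lower in exposed skin, none past the test. Of all kept probes 38.7% were higher. Hspb1, which protects actin and is abundant in the upper epidermis, ran from 4.81 over 4.95 to 5.24 on exposed arrays and from 4.72 over 5.05 to 5.12 on sham arrays. Exposed arrays spanned both ends of the sham range apart from 1 low sham array, and the difference was -0.03 (95% interval -0.18 to 0.12, limma adjusted p = 0.985), with a positive sign under both quantile settings. Hspb8, a partner of Bag3 in the removal of damaged proteins, was at -0.07 (95% interval -0.26 to 0.13). Hspb3, known from muscle, had the largest difference of the 64 genes and also the widest interval, at 0.82 (95% interval -0.52 to 2.16, limma adjusted p = 0.983). It ran from -5.92 over -5.52 to -2.02 on exposed and from -6.73 over -5.93 to -2.81 on sham arrays, and was above background on 9 exposed and 5 of 8 sham arrays. Hspb6, which relaxes smooth muscle and is abundant in striated muscle, was at 0.39 (95% interval -0.69 to 1.48, limma adjusted p = 0.983). On exposed arrays Hspb6 ran from -3.00 over -2.37 to 0.61 and on sham arrays from -2.83 over -2.50 to -0.31. For both genes 2 exposed arrays and 1 sham array lay far above the rest, as the plot of levels by array shows. Markers of skeletal muscle moved with these genes, and their score ran from -2.40 over -0.47 to 4.92 on exposed and from -2.55 over -2.04 to 4.29 on sham arrays. Its part in the differences of Hspb3 and Hspb6 was not tested.

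**Figure D2:**
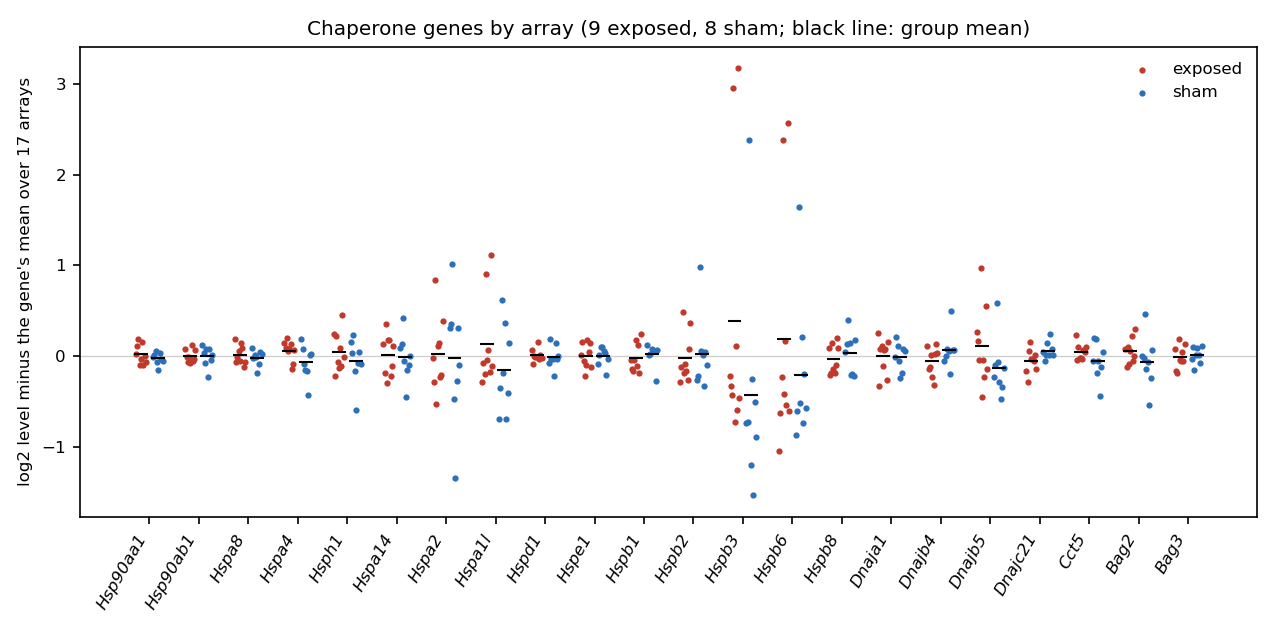
Log2 level minus the gene's mean over 17 arrays (y axis) for 22 chaperone genes (x axis), with 1 point for each of 9 exposed (red) and 8 sham (blue) arrays and a black line at the group mean. Exposed and sham points overlap for every gene, and Hspb3 and Hspb6 each have 2 exposed arrays and 1 sham array far above the others.

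J proteins, which deliver clients to Hsp70 and start its ATP hydrolysis, made up 31 of the 64 measured genes. Of the DnaJ A genes 2 of 4 were higher, of the DnaJ B genes 5 of 6 and of the DnaJ C genes 10 of 21, with 0 past the test. Over all kept probes 38.7% were higher. Dnaja1, the main partner of Hspa8, ran from 1.83 over 2.24 to 2.41 on exposed and from 1.93 over 2.19 to 2.38 on sham arrays. Its groups overlapped and its means differed by 0.0091 (95% interval -0.17 to 0.19, limma adjusted p = 0.995). Dnajc21, which acts in the maturation of ribosomes, had the smallest p of all 64 genes (limma adjusted p = 0.983). Its exposed arrays ran from -2.16 over -1.91 to -1.72 and its sham arrays from -1.92 over -1.84 to -1.63. Only 1 of 9 exposed arrays was above the sham mean, yet the ranges overlapped and the difference was -0.11 (95% interval -0.24 to 0.01). Dnajb4, a heat-inducible partner of Hsp70, was at -0.12 (95% interval -0.30 to 0.06), with -2.56 and -2.51 as the exposed and sham medians. Dnajb5 was at 0.25 (95% interval -0.13 to 0.62), Dnajb3 at 0.10, Dnajc12 at 0.18 and Dnajc22 at 0.13, each with a limma adjusted p of 0.983. Among those members the ranges of the groups overlapped throughout. Dnajc5, a J protein of secretory vesicles, was at -0.04, Dnajc7, which links Hsp70 to Hsp90, at -0.09, and Dnajb6, which holds back aggregation, at 0.08.

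Subunits of TRiC/CCT, the cytosolic chaperonin that folds actin and tubulin, were 5 of 7 higher and 2 of 7 lower in exposed skin, none past the test. The share of all kept probes that were higher was 38.7%. Cct7, Cct6a and Cct3 had 3 of the 4 narrowest intervals among the 64 genes, and the other subunits had wider ones. Cct7 ran from 2.08 over 2.14 to 2.23 on exposed arrays and from 2.06 over 2.13 to 2.19 on sham arrays, so all 17 arrays lay within 1.12-fold of one another. The difference of Cct7 was 0.02 (95% interval -0.06 to 0.09). For Cct5, all 9 exposed arrays were above the sham mean, at 1.06 over 1.15 to 1.34 against 0.66 over 1.06 to 1.31, and the difference was 0.10 (95% interval -0.06 to 0.26, limma adjusted p = 0.983). The ranges still overlapped over most of their length, and the sham mean of Cct5 included 1 array at 0.66. Of the 7 measured subunits, 6 had intervals within 1.2-fold and all within 1.5-fold. Cct6b and Cct8l2, relatives known from testis, were not above background on any array.

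Bag proteins, which release Hsp70 from its clients, ranged from -0.06 for Bag5 to 0.11 for Bag2. Bag3, the heat-inducible member that works with Hspb8, ran from 1.75 over 1.90 to 2.13 on exposed and from 1.78 over 1.95 to 2.05 on sham arrays, and differed by -0.01 (95% interval -0.14 to 0.11). Bag1 and Bag6 were at 0.0041 and 0.0024, and all 17 arrays lay within 1.21-fold of one another for Bag1. Bag2, which holds back the ubiquitin ligase Stub1, was at 0.11 (95% interval -0.10 to 0.33, limma adjusted p = 0.983).

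No call at the adjusted threshold appeared when any 1 array was left out, but the counts at an unadjusted p under 0.05 moved. Without sham replicate 3, 3 of the 64 genes passed, which were Hspb3 at 1.22, Dnajb5 at 0.35 and Bag2 at 0.19, while 6.54% of all kept probes passed there. Sham replicate 3 has a muscle score of 4.29. Without sham replicate 1, Hspa4 alone passed, at 0.16, where 4.64% of all kept probes passed. Without sham replicate 2 or exposed replicate 4, Dnajc21 alone passed, at -0.13 and -0.14, where 5.36% and 3.98% of all kept probes passed. The adjusted p of these values with limma was between 0.745 and 0.966. Single arrays also moved the size of several differences. Hspb6 was at 0.093 without exposed replicate 8, 0.12 without exposed replicate 4 and 0.66 without sham replicate 3, and Hspb3 at 0.47 without exposed replicate 8 and 0.50 without exposed replicate 4. These are the 3 arrays with the highest muscle scores. Hsph1 was at 0.031 without sham replicate 5 and 0.057 without exposed replicate 8. Without sham replicate 6, Hspa4 was at 0.076, Dnajc12 at 0.091 and Dnajb4 at -0.059. Hspa1l was at 0.16 without exposed replicate 8, Dnajb5 at 0.14 without exposed replicate 4 and Hspa12a at 0.14 without exposed replicate 3.

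A further 9 genes were too dim to measure. Cct6b, Cct8l2, Dnajb7 and Dnajc5g were above background on 0 arrays, Dnajc5b on 2, Dnajb8 on 4, Dnajb13 and Hspb7 on 5 each and Dnajc27 on 6. Several of these are known from testis, and Hspb7 from heart. Of 13 genes with more than 1 kept probe, the probes of 7 (Bag2, Bag4, Dnaja3, Dnajc14, Hsp90aa1, Hsp90ab1 and Hspa8) differed in the sign of the difference.

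Over all 17 arrays, most chaperone genes varied little between pieces of skin. The median SD of the log2 level was 0.141, against 0.194 over all kept probes. The 2 sets are unlike, since each gene is read from its brightest kept probe and all kept probes include dimmer ones. How far brightness sets the contrast was not tested. An SD under 0.2 was found for 48 of 64 genes (75%), against 51.7% of all kept probes, and an SD over 0.5 for 4 genes, against 8.8%. The steadiest were Cct7 with an SD of 0.046, Cct6a with 0.056, Dnajc2 with 0.057 and Cct3 with 0.062. Fewer than 1% of all kept probes varied less than any of these, from 0.06% for Cct7 to 0.86% for Cct3. Hsp90aa1, Hsp90ab1, Hspa13 and Hspa8 were also steady, with SDs of 0.091, 0.091, 0.091 and 0.096. At the other end stood Hspb3 with 1.41, Hspb6 with 1.11, Hspa2 with 0.55, Hspa1l with 0.50, Dnajb5 with 0.39, Dnajc25 with 0.34, Hspb2 with 0.34 and Hspa12a with 0.32. The spread of Dnajc25 comes from exposed replicate 3 at -0.32, since the other 16 arrays lay between -1.81 and -1.35. From the lowest to the highest array Hspb6 spanned 12.2-fold and Hspa2 5.13-fold, while Hsp90aa1 spanned 1.27-fold.

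**Figure D3:**
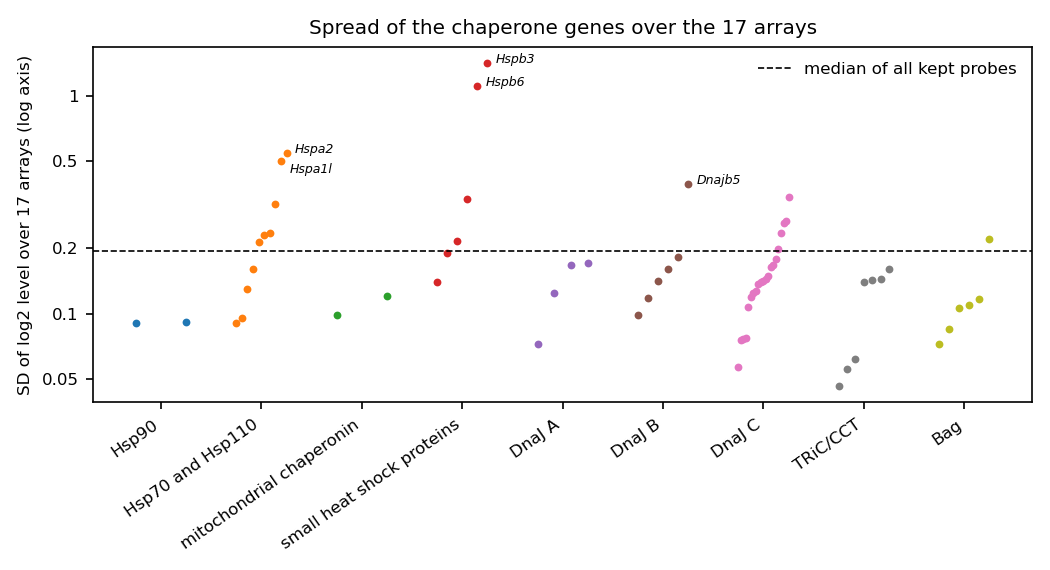
SD of the log2 level over 17 arrays (y axis, log scale) for the 64 measured chaperone genes, 1 point each, by family (x axis), with a dashed line at the median SD of all kept probes (0.194). All 7 TRiC/CCT subunits lie below the line, and Hspb3 and Hspb6 lie highest.

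Where these wide genes were high or low was set beside markers of skeletal muscle and hair follicle, since the pieces of skin differ in both. Each score is the mean, over marker genes, of the log2 level minus the gene's mean over arrays. For muscle 17 of 25 listed markers were measured, and for follicle 16 of 21. The muscle score ran from -2.55 to 4.92 with a gap of 2.46 below 3 arrays, so correlations were taken over the other 14. The follicle score ran from -6.15 to 2.61 with a gap of 2.86 above 1 array, and correlations were taken over the other 16. Arrays share scaling and may share animals, and the permutation p-values (two-sided, 100000 permutations, adjusted over all kept probes outside the marker list) take the arrays as independent.

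Hspb6 followed the muscle score, and it was the only chaperone gene called among the 64, where 0.169% of all probes were called with a positive and 0.0145% with a negative r. Over 14 arrays Pearson's r was 0.87 (permutation p = 6.0e-05, adjusted p = 0.036) and Spearman's rho 0.75 (permutation p = 0.0032, adjusted p = 0.304). Without the 2 arrays farthest from the median score r was 0.69 and the adjusted p 0.379, so the call rests on those arrays. With slide means subtracted r was 0.87 and the adjusted p 0.063, and with quantile scaling the adjusted p was 0.060, so the call was lost there too. On the 3 arrays beyond the gap Hspb6 stood at -0.31 (sham replicate 3), 0.43 (exposed replicate 4) and 0.61 (exposed replicate 8), each above the highest of the other 14 arrays at -1.75. Those same arrays had Hspb3 at -2.81, -2.24 and -2.02, where the other 14 reached -5.08. Over the 14 arrays Hspb3 had an r of 0.68 (permutation p = 0.0071, adjusted p = 0.408; rho 0.75, permutation p = 0.0027). Hspa1l at -4.88, -4.60 and -4.39 and Dnajb5 at -4.87, -4.48 and -4.90 also exceeded the other 14 arrays, whose highest values were -5.14 and -5.19. Within those 14 arrays Hspa1l had an r of 0.52 (adjusted permutation p = 0.608), and 0.16 without the 2 farthest arrays. Dnajb5 had an r of -0.0063 there (adjusted permutation p = 0.997), so it did not follow the score among them. How many of all probes are highest on these 3 arrays was not counted. Hspa12a had an r of 0.69 and Dnajc12 of 0.63, and the most negative were Hspb8 at -0.67, Bag5 at -0.65, Dnajb4 at -0.59 and Hspb9 at -0.58. None of these 6 was called, with adjusted permutation p-values from 0.387 to 0.535. Hspb1, Hspa8 and Hsp90aa1 had r of -0.51, -0.02 and 0.24.

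Hspa14 and Hspa2 followed the hair follicle score. They were the only 2 of the 64 genes called by Pearson's r, a share near that over all probes. Of all probes, 2.55% were called with a positive and 0.711% with a negative r. Hspa14 had an r of 0.89 over 16 arrays (permutation p = 1e-05, the smallest 100000 permutations can give, adjusted p = 0.0016) and a rho of 0.91 (permutation p = 1e-05, adjusted p = 0.0020). Without the 2 farthest arrays r was 0.91, and with slide means subtracted 0.92. Hspa2 had an r of 0.82 (permutation p = 0.00016, adjusted p = 0.011), a rho of 0.89 (permutation p = 1e-05, adjusted p = 0.0020), 0.83 without the 2 farthest arrays and 0.82 with slide means subtracted. Sham replicate 5, the array beyond the gap with the lowest follicle score, was also the lowest of all arrays for both genes, with Hspa14 at 0.76 and Hspa2 at -4.15, where the next arrays stood at 0.91 and -3.33. The follicle score ran from -3.29 over 0.80 to 2.44 on exposed and from -6.15 over 0.40 to 2.61 on sham arrays. Each log2 unit of it went with 0.12 log2 units of Hspa14 and 0.23 of Hspa2. Bag2 came next with an r of 0.70 (permutation p = 0.0029, adjusted p = 0.068) and a rho of 0.87 (permutation p = 3.0e-05, adjusted p = 0.0037), so it passed by rank only. Hspb2 had an r of 0.62 (adjusted permutation p = 0.152). The most negative were Bag5 at -0.58, Bag3 at -0.53, Dnajc10 at -0.50 and Dnajc4 at -0.50, none called. Hspa8 and Hspb1, had r of 0.03 and -0.03.

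**Figure D4:**
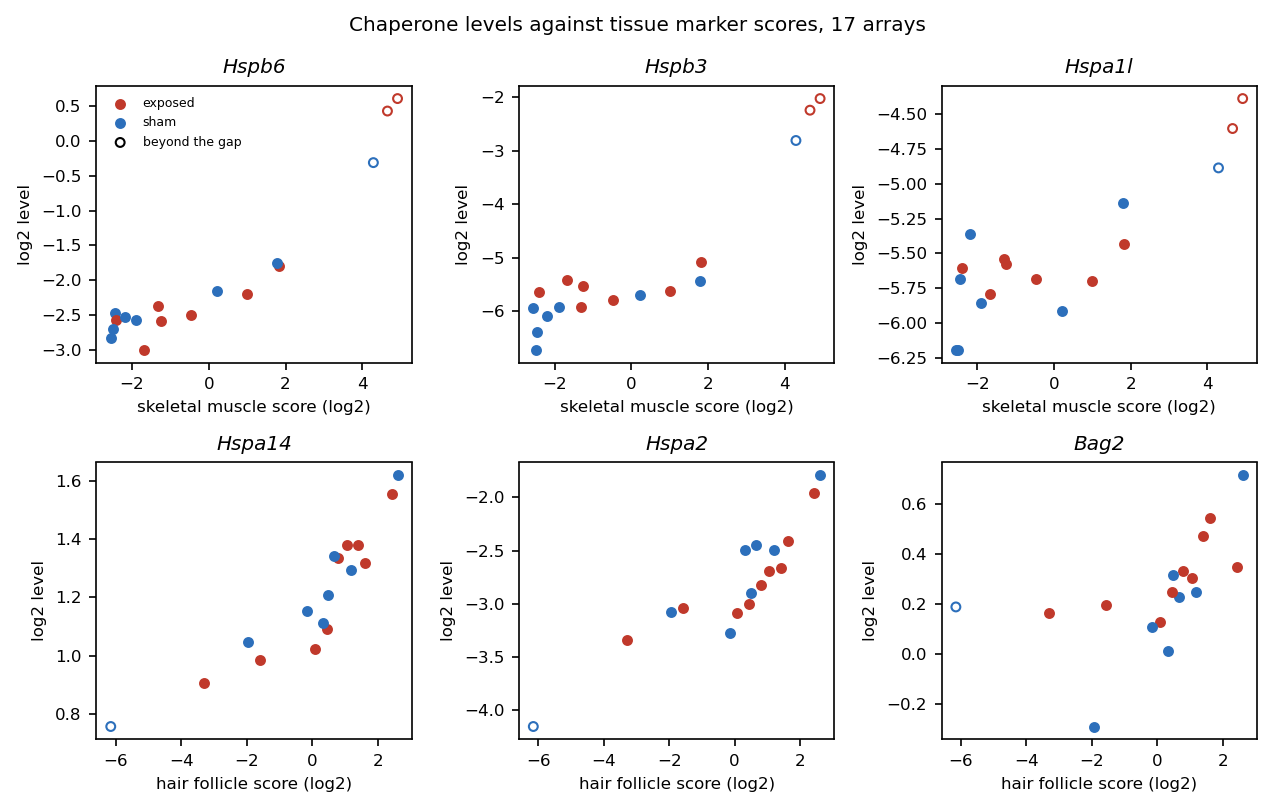
Log2 level (y axes) of Hspb6, Hspb3 and Hspa1l against the skeletal muscle score and of Hspa14, Hspa2 and Bag2 against the hair follicle score (x axes, log2), with 1 point for each of 17 arrays, red for exposed and blue for sham, and open circles for arrays beyond the gap in the score. Exposed and sham points are mixed in each panel, and the 3 open circles stand at the top of the muscle panels.

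Among themselves, the genes known as heat-inducible or as Hsf1 targets were correlated only in part. The list held 17 genes, of which 14 were measured, giving 91 pairs over 17 arrays. Pearson's r was over 0.5 in 10 pairs, where 6.36% of all pairs of kept probes are, and under -0.5 in 2 pairs, where 4.75% are. The median r was 0.13 against 0.01 over all pairs. The count over 0.5 became 21 with quantile scaling, and was 11 with slide means subtracted, where the share over all pairs was not counted. Of the 10 pairs with r over 0.5, 7 lay among Dnaja1, Hspa8, Hspa4l, Cct2 and Cct5, a block picked from these same correlations, as the map of pair correlations shows. Without the 2 farthest arrays, r of Hspa4l was 0.24 with Cct5, 0.45 with Cct2 and 0.48 with Hspa8, while the rest of these 7 pairs stayed over 0.5. The remaining pairs of the block were not over 0.5 on all arrays. Their r was 0.43 for Dnaja1 and Hspa4l, 0.43 for Hspa8 and Cct2, and 0.32 for Hspa8 and Cct5. Each gene is read here from its brightest kept probe, and the pairs were not checked on its other probes. The permutation p-values that follow are unadjusted, out of 91 pairs.

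Dnaja1 and Cct2 gave the highest r, 0.76 (permutation p = 0.00037; rho 0.69, permutation p = 0.0027), which was 0.78 without the 2 farthest arrays and 0.83 with slide means subtracted. Hspa8 and its partner Dnaja1 had an r of 0.70 (permutation p = 0.0016; rho 0.58, permutation p = 0.017), and 0.56 without the 2 farthest arrays. The chaperonin subunits Cct2 and Cct5 had an r of 0.68 (permutation p = 0.0031) and a rho of 0.86, and 0.75 without the 2 farthest arrays. Hsp90ab1 and Hspd1 had an r of 0.62 (permutation p = 0.0098; rho 0.38, permutation p = 0.13) that was 0.24 without the 2 farthest arrays, so it rests on them. In the other direction, Hsp90aa1 and Bag3 had an r of -0.70 (permutation p = 0.0015; rho -0.67, permutation p = 0.0040), -0.64 without the 2 farthest arrays and -0.71 with slide means subtracted, but -0.47 with scaling to the median. Hsp90aa1 and Hspb1 had an r of -0.52 (permutation p = 0.035; rho -0.55, permutation p = 0.024), which was -0.38 without the 2 farthest arrays, -0.34 with scaling to the median and -0.25 with quantile scaling. Hspb1 and Bag3 had an r of 0.49 (permutation p = 0.045; rho 0.50, permutation p = 0.044), and 0.39 without the 2 farthest arrays. Hspd1 and Hspe1, despite their shared promoter, had an r of 0.13.

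**Figure D5:**
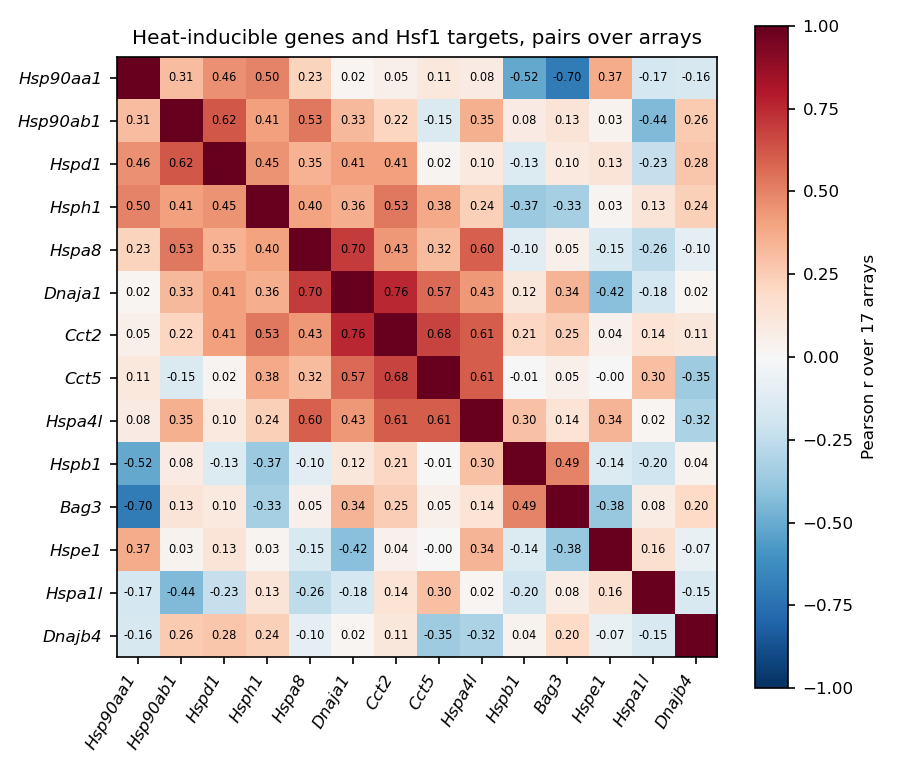
Pearson's r over 17 arrays for each pair of the 14 measured chaperone genes known as heat-inducible or as Hsf1 targets (both axes), coloured from blue (-1) to red (1) with the value printed in each cell. The block of Hspa8, Dnaja1, Cct2, Cct5 and Hspa4l is mostly red, and Hsp90aa1 is blue with Bag3 (-0.70) and Hspb1 (-0.52).

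In the wider machinery, too, no gene passed the adjusted threshold. Of 36 listed genes of the pathway outside the families (heat shock factors and their regulators, Hsp90 and Hsp70 co-chaperones, prefoldin subunits, crystallins), 31 were measured, with 17 higher and 14 lower in exposed skin. Among all kept probes 38.7% were higher. With limma 0 passed at the adjusted threshold and 1 at an unadjusted p under 0.05, against 4.55% of all kept probes. That gene was Ppp5c, a phosphatase bound to Hsp90, which ran from -2.50 over -2.27 to -2.20 on exposed and from -2.62 over -2.45 to -2.18 on sham arrays. Its difference was 0.13 (95% interval 0.0051 to 0.26, limma adjusted p = 0.983). Ahsa1, which activates the Hsp90 ATPase, was at 0.07 and Hsf2, a heat shock factor, at -0.14, neither past the unadjusted threshold. Hsf2 had an r of -0.77 with the follicle score (permutation, adjusted p = 0.022) and was the 1 pathway gene called with it.

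By the codes in their titles the arrays lay on 4 slides, a reading that the titles do not spell out. With limma's F test between slides 0 of the 64 genes passed at the adjusted threshold, as did 0% of all kept probes, and 9 of 82 chaperone probes (11.0%) had an unadjusted p under 0.05, against 8.9% of all. Hspa1l had the smallest p among the 64 genes (limma adjusted p = 0.425).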

How the data were processed

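Skin RNA of 17 samples was measured on 1-colour Agilent arrays. The authors' scanner files give each spot's intensity (linear), made with Agilent Feature Extraction 10.7.3.1 (protocol GE1_107_Sep09), background-subtracted per the file headers. The deposited value table holds log2 values of 14853 probes and served as an alternative. Main values subtract the 75th percentile of an array from its log2 processed signals, with control and outlier spots left out and spots of a probe averaged (62976 spots, 30367 probes). Probes with at least 50% of their spots well above background on at least 8 arrays were kept (20709). Accessions were named through the RefSeq table (17998 probes). Exposure was tested with limma 3.58.1 (lmFit, eBayes) in R 4.3.3, and slides with its F test. Members and lists were chosen with earlier results of these data known. Named genes are a core of each family, the 8 smallest p, the 8 largest and 4 smallest SDs and the 4 highest and lowest r with each score. P-values of correlations with scores were adjusted over all kept probes. Arrays give no counts, so their number limits the precision. Scripts were tested on simulated data. Alternatives covered scaling, background correction (normexp, offset 50, on the median signal), the filter on dim probes, slide as a block or subtracted, array weights, the mean of a gene's probes, the deposited table and each array left out. Motifs in proteins were not analysed here.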

Additional observations from a re-analysis of the deposited data

Results flagged for a closer look

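Among 34 sets of values (17 chaperone genes in 2 groups), 5 had 1 array whose gap to the nearest other array was large for the range of its group by Dixon's ratio. Chance gives about 1 in 20 for independent sets chosen without regard to spread. The flagged Hspb3, Hspb6 and Dnajb5 have some of the largest SDs over these arrays and were flagged on 1 shared array. The count therefore cannot be set against that rate. All 5 flagged values were on sham arrays, but a gap to the nearest array cannot flag 2 high arrays that lie close together. For Hspb3, exposed replicates 4 and 8 stood at -2.24 and -2.02, with the next exposed array at -5.08. For Hspb6 the same arrays stood at 0.43 and 0.61, with the next at -1.79. Hspb1 stood at 4.72 in sham replicate 7, below the next sham array at 5.00. In sham replicate 3, Hspb3 stood at -2.81 (next -5.45), Hspb6 at -0.31 (next -1.75) and Dnajb5 at -4.87 (next -5.52), and that array has the highest muscle score of the sham arrays, 4.29. Dnajb4 stood at -2.07 in sham replicate 6 (next -2.49).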

How the results depend on the processing

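The count of chaperone genes past the adjusted threshold was 0 under all alternatives run. The count of probes that differed between slides was 0 with the main scaling, and that test was not run under the others. At an unadjusted p under 0.05 the count was 0 under the scaling, background, block, weight, deposited-table and probe-mean alternatives. It was 1 of 73 (Dnajb7) with no filter on dim probes, where 1315 of all 30367 probes passed, and 0 to 3 with single arrays left out. The median difference of the genes was 0.0032 to 0.030 under those alternatives, 0.0019 to 0.026 with single arrays left out, and -0.0051, -0.014, 0.072 and 0.047 within slides 1 to 4. The count with the muscle score was 0 with quantile scaling, with slide means subtracted and without the 2 farthest arrays. With the follicle score it was 5 with slide means subtracted (Bag2, Hspa13, Hspa14, Hspa2 and Hspb2). The pairs of heat-inducible genes or Hsf1 targets with r over 0.5 numbered 21 with quantile scaling. The shares over all kept probes and over all their pairs were not counted under these settings, so these counts cannot be set beside them. Signs turned for Hspb1 with quantile scaling (0.0076), normexp with quantile scaling (0.0033) and the deposited table (0.0080), for Hsp90aa1 with the mean of its probes (-0.0097), for Hspa14 with slide as a block (-0.00020), and with normexp and the 75th percentile for Hspa12a (-0.0081), Dnajb5 (-0.018), Hspa2 (-0.0062) and Hspa1l (-0.016). With single arrays left out Hspa2 ranged from -0.14 to 0.20 and Hspa14 from -0.035 to 0.089. Signs turned within slide 1 for Hspa2 (-0.15), Hspa14 (-0.013) and Hsph1 (-0.015); within slide 2 for Hspa2 (-0.40), Hspa14 (-0.23), Dnajb5 (-0.20), Hspb6 (-0.17), Hspb3 (-0.16), Hsph1 (-0.092), Dnajc12 (-0.090), Hspa1l (-0.029) and Hsp90aa1 (-0.0094); within slide 3 for Dnajb4 (0.32), Hspa12a (-0.21), Dnajb3 (-0.025), Dnajc12 (-0.011) and Dnajc21 (0.0063); and within slide 4 for Hspa12a (-0.32), Hspb1 (0.30), Dnajc22 (-0.13), Hspb6 (-0.10), Hspa8 (-0.053) and Hsp90aa1 (-0.045). Values within slide 3 are exposed replicate 8 minus sham replicate 5. Those within slide 4 set exposed replicate 9 against sham replicates 6, 7 and 8. The causes were not tested. No paired analysis was possible because the labels carry no replicate numbers that groups share. Dim genes such as Hspb3 and Hspa1l are limited by a signal near background on several sham arrays.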
